A study of Mus musculus with 14 samples.

Results

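Transcript levels were compared between mouse embryonic fibroblasts (MEFs) kept without amino acids for 12 h and for 6 h. The comparison used 4 of the 14 RNA sequencing libraries of the study, 2 at each time, and every gene that passed a filter on low counts, with no library of the control in the contrast. MEFs are connective tissue cells grown out of a mouse embryo. They had been held in high-glucose medium with ordinary serum for a day, then washed and moved to medium that lacked amino acids and contained dialyzed serum, from which small molecules have been removed. The 12 h and 6 h groups therefore shared the wash, the change of medium and the dialyzed serum, and differed by 6 h of starvation. They differed by the same 6 h in time since the change of medium. No fed cells were sampled at 6 or 12 h, so length of starvation and time since the change cannot be told apart. Glucose starvation, in medium without glucose and with dialyzed serum, was sampled at 3, 6 and 12 h. Amino acid starvation was likewise sampled at 3 h, and the control libraries, at 0 h, had no change of medium and ordinary serum in the freezing mix. All cells were detached with trypsin and stored frozen before RNA was made, and the labels give no strain, age or number of embryos. Whether the pair of libraries at each time came from separate dishes is not stated, so the p-values measure the spread between these libraries, which may be technical.

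Cells sense missing amino acids in several ways. Uncharged transfer RNA activates the kinase GCN2, which phosphorylates the initiation factor eIF2, slows translation in general and favours that of ATF4, a transcription factor that turns on genes for amino acid uptake, synthesis and tRNA charging. Loss of amino acids also switches off mTORC1, the kinase complex that drives ribosome production, releases autophagy and lets the factors TFEB and TFE3 enter the nucleus and act on lysosomal genes. Fibroblasts make collagen and a contractile actin network, both of which draw on a steady supply of amino acids, and they answer serum or a change of medium with a short burst of immediate early genes.

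The 2 libraries at 12 h held 42374107 and 46090758 reads in genes and the 2 at 6 h held 42352164 and 55349673, within the range of 35270751 to 55349673 over the study. Mitochondrial transcripts took 4.365% and 4.938% of reads at 12 h, against 4.863% and 4.977% at 6 h, and the 20 most abundant genes took 7.077% and 7.462% at 12 h, against 7.943% and 7.982% at 6 h. The 2 libraries of a group correlated at r = 0.9895 at 12 h and 0.9885 at 6 h across genes. The pair at 6 h differed more in reads than the pair at 12 h, and the pair at 12 h differed more in mitochondrial share. Of the 8 fibroblast markers, 7 were tested and the eighth, Thy1, was listed at 0 in all 4 libraries. Their summed level was 607 and 583 CPM, the read count scaled to the depth of its library, at 12 h, against 2083 and 2088 CPM at 6 h, so the markers of the labelled cell type were present at both times and lower at 12 h, and 3 of them, Col1a1, Col1a2 and Vim, are among the genes described below. Summed macrophage markers stood at 20.3 and 17.7 CPM at 12 h and 24.8 and 25.2 CPM at 6 h with Adgre1 at 0, endothelial markers at 16 and 15.2 CPM at 12 h and 24.9 and 25.5 CPM at 6 h, and neural markers at 34.6 and 34.3 CPM at 12 h and 33.8 and 34.7 CPM at 6 h. The highest sum in any of the 4 libraries was 2.56 CPM for skeletal muscle, 1.49 CPM for erythroid, 1.23 CPM for adipocyte and 0.254 CPM for epithelial markers, with Myog, the globins, Adipoq and Krt18 at 0. The part of other cell types in the changes was not tested.

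More than 1 gene in 2 differed between the times. Of 17696 genes tested, 9708 (54.9%) passed the threshold, an adjusted p under 0.05 in edgeR's quasi-likelihood test with Benjamini-Hochberg adjustment. At 12 h 4917 genes (27.8%) were higher than at 6 h and 4791 (27.1%) were lower, and a change of at least 2-fold was found for 2679 genes (15.1%), for 1288 higher genes (7.28%) and 1391 lower genes (7.86%). The median log2 change over all genes was 0.006. These values are scaled with TMM factors, which assume that most genes keep their share. With library totals in place of the factors the median was 0.217, every log2 change lay about 0.21 higher, and 69.3% of the calls were higher in place of 50.6%. Every change, whatever its size, is therefore relative to the other genes of the libraries, and none measures RNA per cell. For changes under about that size the direction also depends on the scaling. In bulk RNA, fewer cells that make a transcript and less of it per cell cannot be told apart.

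**Figure D1:**
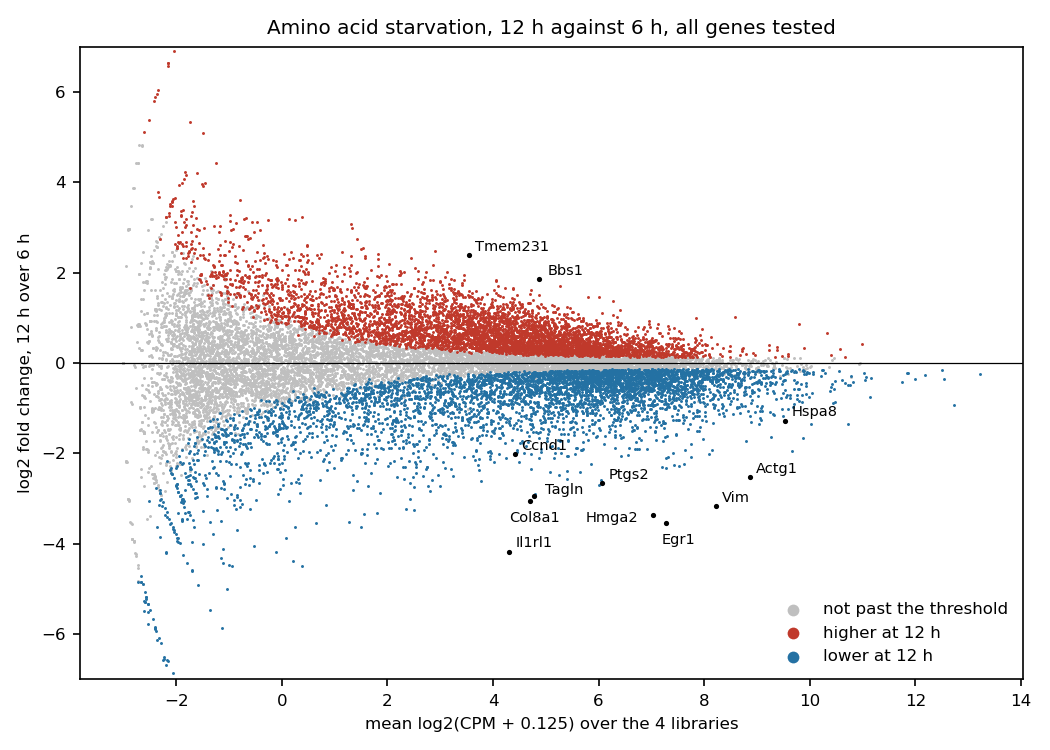
Log2 fold change of every tested gene (12 h over 6 h of amino acid starvation, vertical axis) against its mean log2 CPM over the 4 libraries, with a small pseudocount (horizontal axis); red and blue genes passed the threshold in either direction, and the few genes beyond the vertical range are not drawn. Well expressed genes reached larger falls than rises: Egr1 lay at -3.54 and Vim at -3.17, while Tmem231 lay at 2.38.

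Falls were more frequent among abundant transcripts. With genes split into 5 bins of equal size by level per kilobase of transcript, the top bin had 48.4% lower at 12 h and 19.5% higher, with a median log2 change of -0.14. In the middle bin 24.9% were lower and 40.5% higher, with a median of 0.14. Bins by GC content of the transcript had medians between -0.02 and 0.03.

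Among the 12 largest falls of well expressed genes were signalling, cytoskeletal and matrix genes. Il1rl1, the receptor for interleukin 33, first known as a serum-induced gene of fibroblasts, was at 4.23 and 4.97 CPM at 12 h, against 83.0 and 83.4 CPM at 6 h, a log2 change of -4.17 ± 0.087 (SE, adjusted p = 9.73e-25 by edgeR). Egr1, an immediate early zinc finger factor, was at 43.1 and 47.7 CPM at 12 h, against 532 and 525 CPM at 6 h (log2 change -3.54 ± 0.064, adjusted p = 9.12e-26 by edgeR). Hmga2, a chromatin protein of embryonic and proliferating cells, was at 38.9 and 41.9 CPM at 12 h, against 409 and 429 CPM at 6 h (log2 change -3.37). In all 3 genes the libraries of the 2 times did not overlap, as the rule for naming them required, and the 12 h libraries lay far below. Such a lack of overlap was found in 77.6% of all genes tested and in 99.9% of those called. Here and below it therefore adds little to a call. Vim, which encodes the intermediate filament protein vimentin, was at 101 and 97.9 CPM at 12 h, against 886 and 900 CPM at 6 h, a log2 change of -3.17 ± 0.061 (adjusted p = 1.51e-25 by edgeR). Prkg2, a cGMP-dependent protein kinase, was at 25.4 and 25.1 CPM at 12 h, against 157 and 169 CPM at 6 h (log2 change -2.69). Inhba, the subunit of activin A, was at 15.4 and 16.6 CPM at 12 h, against 89.4 and 88.5 CPM at 6 h (log2 change -2.48). The other 6, Col8a1, Tagln, Ptgs2, Thbs1, Actg1 and Lox, are described with their groups below.

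The 12 largest rises were smaller and in less abundant transcripts. Tmem231, a membrane protein of the transition zone at the base of the primary cilium, was at 25.6 and 27.1 CPM at 12 h, against 5.5 and 4.64 CPM at 6 h, a log2 change of 2.38 ± 0.12 (adjusted p = 8.96e-16 by edgeR). Bbs1, a subunit of the BBSome that carries membrane proteins to cilia, was at 57.2 and 54.4 CPM at 12 h, against 15.6 and 15.1 CPM at 6 h (log2 change 1.86 ± 0.094, adjusted p = 3.99e-16 by edgeR). Tmem104, a multipass membrane protein, was at 19.4 and 15.3 CPM at 12 h, against 4.77 and 3.79 CPM at 6 h (log2 change 2.02). Both libraries at 12 h exceeded both at 6 h in each of these genes, as the rule for naming them required. Angptl6, a secreted protein of the angiopoietin-like family, was at 32.0 and 30.3 CPM at 12 h, against 8.74 and 8.87 CPM at 6 h (log2 change 1.82), and had been at 0.48 CPM on average in the control. Strip2, a component of a phosphatase and kinase complex, was at 19.8 and 21.3 CPM at 12 h, against 6.02 and 5.4 CPM at 6 h (log2 change 1.85). The other 7 were Ipp, Krba1, Ccdc18, Plpp6, Rnf157, Enpp5 and Zfp362, with log2 changes between 1.79 and 1.94. At 6 h Tmem231 and Tmem104 averaged 5.07 and 4.28 CPM, below their control averages of 6.52 and 13.4 CPM. Bbs1 and Strip2 averaged 15.4 and 5.71 CPM at 6 h, above their control averages of 10.8 and 2.34 CPM. Of the other 7, all but Rnf157 averaged less at 6 h than in the control, and Enpp5 still did at 12 h.

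**Figure D2:**
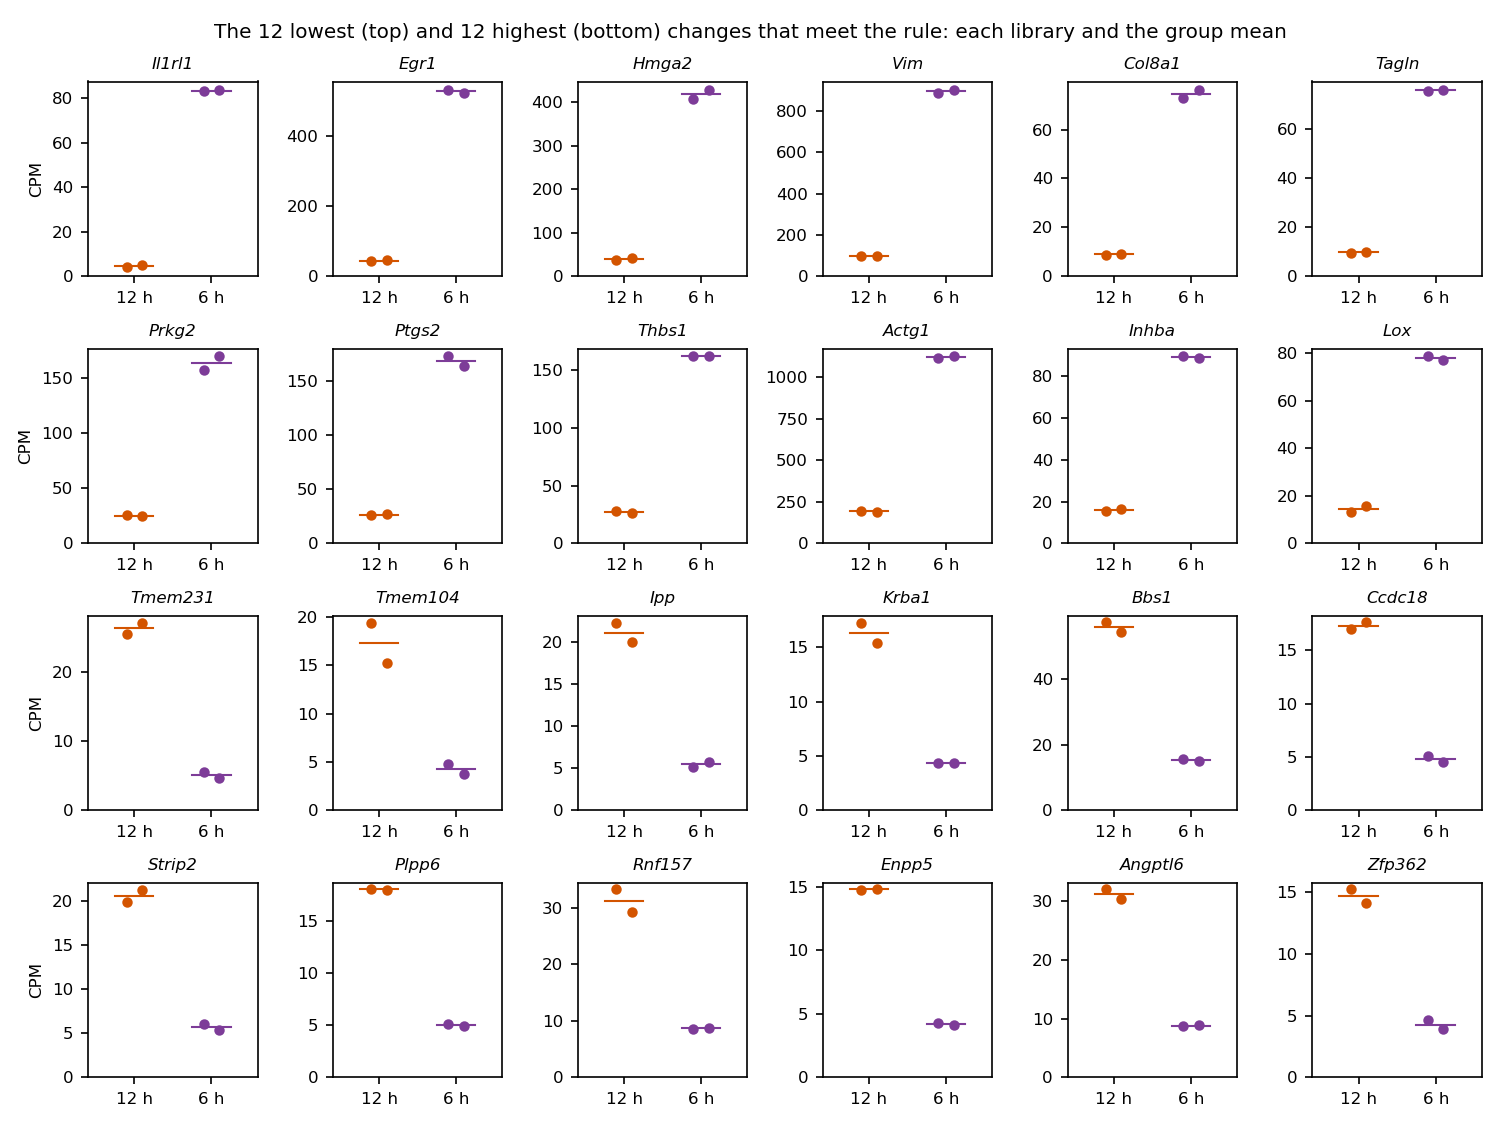
CPM (vertical axes, from 0, with a scale of their own in each panel) in the 2 libraries at 12 h (orange) and the 2 at 6 h (purple) for the 12 largest falls (upper 2 rows) and the 12 largest rises (lower 2 rows) that met the rule for named genes; points are libraries and lines are group means. The 2 libraries of a group lay close together beside the gap between groups: Vim was at 101 and 97.9 CPM at 12 h and at 886 and 900 CPM at 6 h.

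Genes were then grouped into 44 lists, 39 by their known roles and 5 by the pattern of their symbols, and a gene can stand in several. The lists and their members were chosen with earlier results of these data known. Their counts therefore describe these libraries, and no list was tested as a group. Each list is described by how many of its tested members passed the threshold in each direction, beside the 27.8% higher and 27.1% lower of all genes, and by its median log2 change, beside 0.006 over all genes. List values with library totals stand instead beside 7192 higher and 3191 lower of all 17696 genes and a median of 0.217. The exons of 42.2% of tested genes overlap those of another gene in the GRCm38 annotation used here, and how shared reads were counted, with or without strand, is not given in the sources used here. Of the genes named in these results these are Hmga2, Tagln, Thbs1, Actg1, Lox, Angptl6, Plpp6, Fosl1, Jun, Dusp5, Ereg, Nrg1, Tuba1a, Ccn2, Col5a1, Tnc, Timp3, Pcolce, Ddit3, Slc6a9, Jdp2, Slc6a6, Slc38a9, Shmt1, Aars, Mars1, Sqstm1, Map1lc3b, Atg9a, Ccpg1, Mybbp1a, Tsr1, Wdr43, Dkc1, Eif4a1, Eef1a1, Rpl6, Mrps26, Hspa8, Pdia6, Lss, Hmgcs1, Ccnd1, Cdkn1a and Txnip, whose values may hold reads of a neighbour. Actb, Flna, Jun, Ccn1, Slc38a9, Aars and Mars1 were named after their values were seen.

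**Figure D3:**
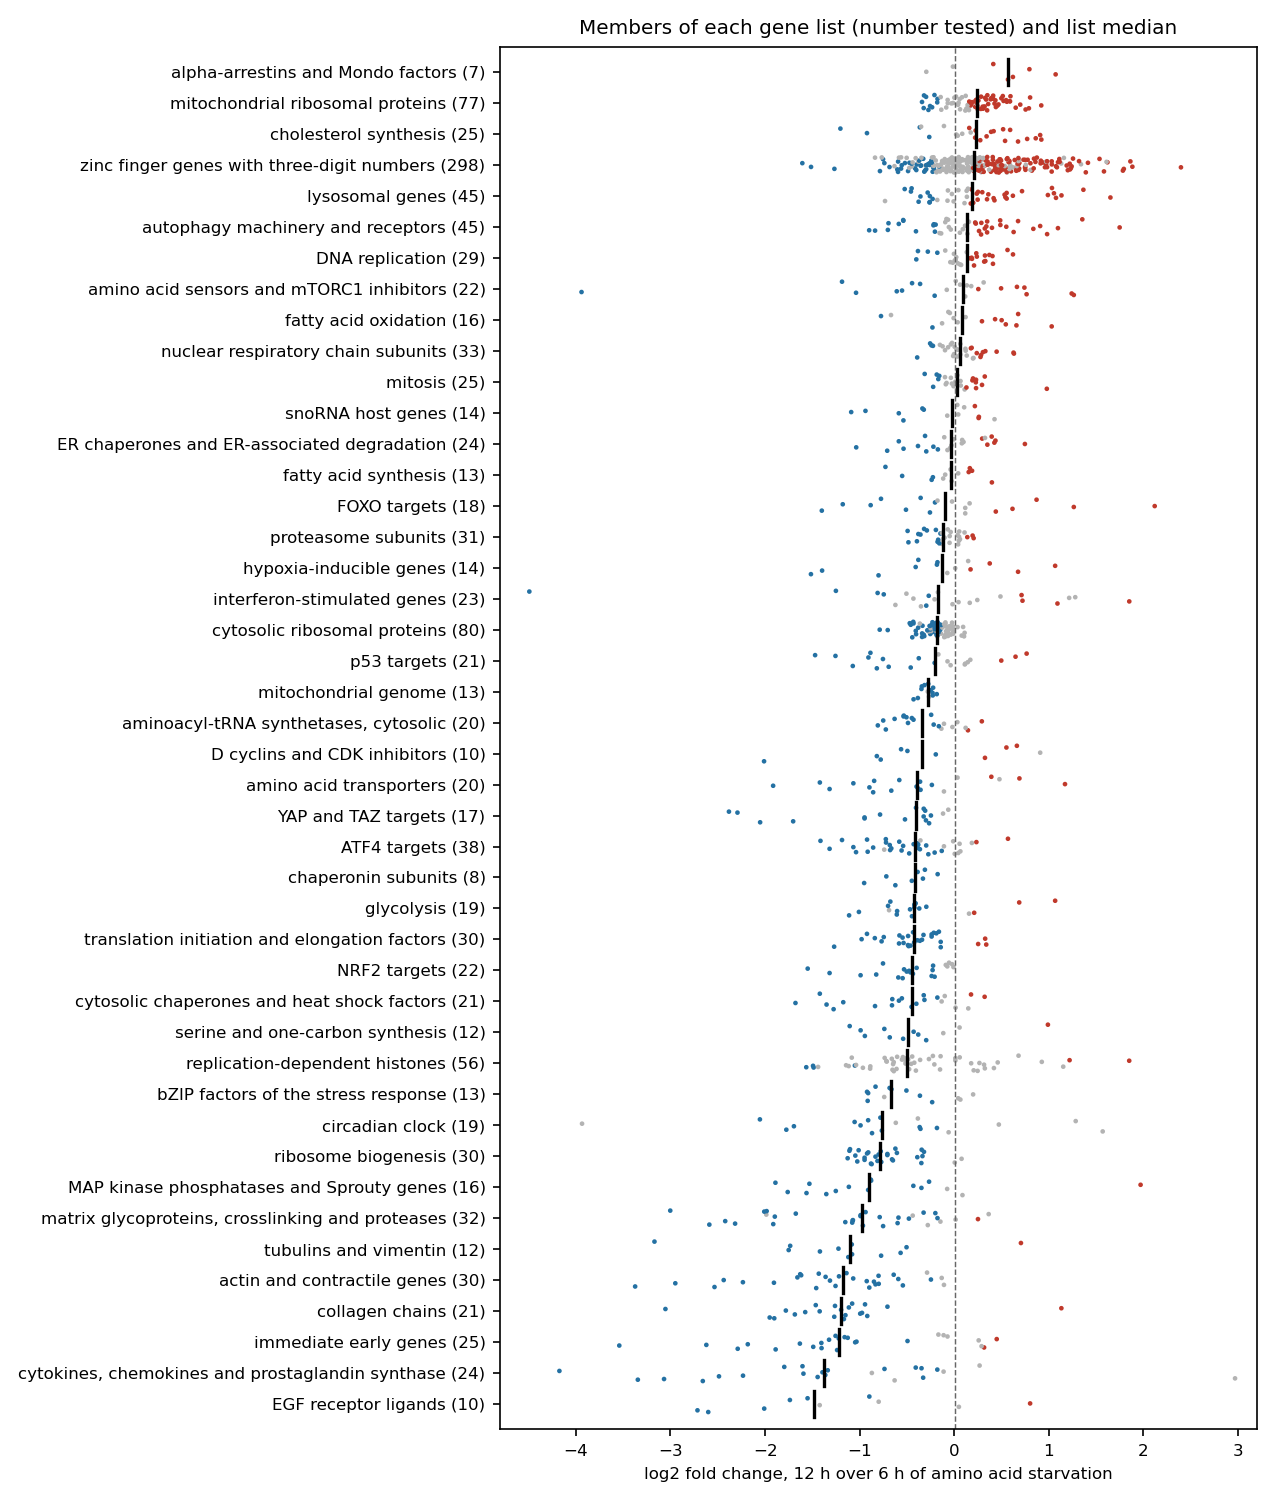
Log2 fold change (12 h over 6 h of amino acid starvation, horizontal axis) of each tested member of the 44 gene lists, with red for members higher, blue for lower and grey for those not past the threshold; black bars are list medians and the dashed line is the median of all genes, 0.006. Medians run between -1.49 for the list drawn as EGF receptor ligands, which also holds a receptor and an inhibitor, and 0.57 for alpha-arrestins and Mondo factors, and H1f5, at -6.13 and under 1 CPM, is among the members outside the range drawn.

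Growth factor and inflammatory response genes fell together. Of 25 immediate early genes, the transcription factors and signals that cells induce within minutes of a stimulus, 18 fell and 2 rose, with a median log2 change of -1.22. Beside Egr1, Fosl1, a partner of JUN in the AP-1 factor, was at 83.3 and 82.9 CPM at 12 h, against 410 and 402 CPM at 6 h (log2 change -2.29). Myc, a driver of growth and ribosome production, was at 124 and 120 CPM at 12 h, against 306 and 303 CPM at 6 h (log2 change -1.32 ± 0.057, adjusted p = 1.17e-17 by edgeR). Jun went the other way, with 208 and 204 CPM at 12 h, against 162 and 169 CPM at 6 h (log2 change 0.32). In the control at 0 h Fosl1 averaged 78.7 CPM, Myc 105 CPM and Jun 69.3 CPM.

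Negative regulators and ligands of growth factor signalling fell more often than they rose. Of 16 MAP kinase phosphatase and Sprouty genes, which are induced by ERK signalling and restrain it, 13 fell and 1 rose (median log2 change -0.90). Dusp5, a nuclear ERK phosphatase, was at 13.2 and 12.6 CPM at 12 h, against 40.7 and 46.4 CPM at 6 h (log2 change -1.76), and Spry2, an inhibitor of receptor signalling, fell by 1.53. A list of 10 genes of EGF receptor signalling, which holds 8 ligands, a receptor and an inhibitor of it, had the lowest median, -1.49, with 6 lower and 1 higher. Of its 8 ligands 4 fell and 1 rose. Hbegf, a membrane-anchored ligand, was at 22.4 and 24.5 CPM at 12 h, against 94.6 and 94.3 CPM at 6 h (log2 change -2.01 ± 0.064, adjusted p = 1.1e-20 by edgeR). Ereg, which encodes epiregulin, was at 2.7 and 2.45 CPM at 12 h, against 17.8 and 16.1 CPM at 6 h (log2 change -2.71). Areg and Nrg1, for amphiregulin and neuregulin 1, had log2 changes of -2.60 and -1.74. The 12 h libraries lay below the 6 h libraries in each of these genes.

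Among cytokines, chemokines and the prostaglandin synthase, 24 of 25 were tested, 19 fell and none rose, with a median log2 change of -1.38. Ptgs2, the inducible cyclooxygenase of prostaglandin synthesis, was at 26.4 and 27.0 CPM at 12 h, against 173 and 164 CPM at 6 h (log2 change -2.66 ± 0.064, adjusted p = 2.88e-23 by edgeR). Csf1, the growth factor of macrophages, was at 48.0 and 49.4 CPM at 12 h, against 150 and 144 CPM at 6 h (log2 change -1.59). Ccl2, a chemokine that attracts monocytes, was at 3.07 and 3.34 CPM at 12 h, against 18.0 and 18.0 CPM at 6 h (log2 change -2.49). The libraries of the 2 times did not overlap for any of the 3. Of 24 interferon-stimulated genes 23 were tested, and they split, with 4 higher and 6 lower. Ly6a, a surface protein of mesenchymal cells, was at 0.285 and 0.151 CPM at 12 h, against 4.72 and 5.08 CPM at 6 h (log2 change -4.49). Stat2, a factor of interferon signalling, was at 27.3 and 26.6 CPM at 12 h, against 15.7 and 16.9 CPM at 6 h (log2 change 0.72). The median of this list was -0.17 and turned to 0.04 with library totals.

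Transcripts of the cytoskeleton fell broadly. Of 30 actin and contractile genes 27 fell and none rose, with a median log2 change of -1.18, and 17 fell at least 2-fold. Actg1, the cytoplasmic gamma actin, was at 196 and 191 CPM at 12 h, against 1113 and 1126 CPM at 6 h (log2 change -2.53 ± 0.059, adjusted p = 1.68e-23 by edgeR). Actb, the beta actin that is often used as a stable reference, was at 625 and 595 CPM at 12 h, against 1134 and 1140 CPM at 6 h (log2 change -0.90 ± 0.050, adjusted p = 4.78e-15 by edgeR). Both cytoplasmic actins fell. Tpm1, a tropomyosin that lies along actin filaments, was at 89.3 and 92.1 CPM at 12 h, against 428 and 426 CPM at 6 h (log2 change -2.23). Tagln, an actin-bundling protein of smooth muscle and myofibroblasts, was at 9.56 and 10.1 CPM at 12 h, against 75.6 and 76.2 CPM at 6 h (log2 change -2.95). Tagln2, its relative outside muscle, had a log2 change of -1.91. Flna, the crosslinker filamin A, was at 558 and 502 CPM at 12 h, against 1716 and 1629 CPM at 6 h (log2 change -1.66).

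The actin genes are textbook targets of serum response factor (SRF), whose cofactors MRTF-A and MRTF-B are held in the cytoplasm by free actin, and SRF binds a sequence called the CArG box. The promoter of Actg1 is shown because the gene had the highest level at 6 h among the 12 largest falls. It is the RefSeq window on GRCm38.p6, chr11:120348446-120348745, minus strand, 250 bases before to 50 after the annotated start, with the CArG box in capitals.
Actg1: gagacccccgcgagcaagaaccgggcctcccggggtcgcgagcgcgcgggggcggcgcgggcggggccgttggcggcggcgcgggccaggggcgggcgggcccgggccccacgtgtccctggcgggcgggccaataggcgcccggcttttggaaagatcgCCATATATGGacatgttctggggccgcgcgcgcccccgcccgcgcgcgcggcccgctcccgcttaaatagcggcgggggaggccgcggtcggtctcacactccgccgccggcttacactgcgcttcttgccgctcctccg
The CArG box, searched on both strands, begins 90 bases before the start. A CArG box stood in the window of 5 of 26 actin and contractile genes with a window (19.23%) and of 3 of 19 immediate early genes (15.79%), against 1.67% of the 11679 tested genes with a window. A match describes these letters only, and binding was not measured. The motifs and lists searched were chosen after the values were seen. The lists were made up by known roles, which include being a target of SRF, so these shares describe the lists.

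Tubulins and vimentin gave 11 lower and 1 higher gene of 12, with a median log2 change of -1.10. Tubb5, the main beta tubulin of dividing cells, was at 247 and 241 CPM at 12 h, against 807 and 818 CPM at 6 h (log2 change -1.73 ± 0.056, adjusted p = 1.71e-20 by edgeR). Tuba1a, an alpha tubulin, was at 256 and 252 CPM at 12 h, against 557 and 547 CPM at 6 h (log2 change -1.12). Of 17 targets of YAP and TAZ, the coactivators that respond to cell tension, 15 fell and none rose (median log2 change -0.41). Cavin2, a coat protein of caveolae, was at 17.6 and 19.2 CPM at 12 h, against 96.7 and 95.5 CPM at 6 h (log2 change -2.38). Ccn2, a matricellular growth factor, was at 20.4 and 21.4 CPM at 12 h, against 88.5 and 84.7 CPM at 6 h (log2 change -2.05). Ccn1, its close relative and also a standard YAP target, was at 96.4 and 96.1 CPM at 12 h, against 119 and 112 CPM at 6 h (log2 change -0.27), a far smaller fall. With library totals 9 of these 17 fell and none rose.

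Extracellular matrix genes fell as well. Of 22 collagen chains 21 were tested, 20 fell and 1 rose, with a median log2 change of -1.20. Col1a1, a chain of the fibrillar collagen that makes up most of connective tissue, was at 322 and 301 CPM at 12 h, against 705 and 694 CPM at 6 h (log2 change -1.17 ± 0.057, adjusted p = 2.46e-16 by edgeR). Its partner chain Col1a2 was at 53.8 and 52.9 CPM at 12 h, against 197 and 202 CPM at 6 h (log2 change -1.90 ± 0.056, adjusted p = 1.88e-21 by edgeR). Col8a1, a short-chain network collagen, was at 8.95 and 9.01 CPM at 12 h, against 72.8 and 76.2 CPM at 6 h (log2 change -3.05). Both chains of type I collagen fell, and a difference between their changes was not tested. Col5a1 and Col6a1 had log2 changes of -1.69 and -1.58.

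Of 34 matrix glycoproteins, crosslinking enzymes and proteases 32 were tested, 25 fell and 1 rose, with a median log2 change of -0.98. Thbs1, the matricellular protein thrombospondin 1, was at 27.7 and 26.0 CPM at 12 h, against 162 and 162 CPM at 6 h (log2 change -2.59 ± 0.074, adjusted p = 3.84e-21 by edgeR). Tnc, for tenascin C, was at 72.5 and 67.2 CPM at 12 h, against 353 and 343 CPM at 6 h (log2 change -2.32). Lox, the lysyl oxidase that crosslinks collagen, was at 13.3 and 15.7 CPM at 12 h, against 78.8 and 77.2 CPM at 6 h (log2 change -2.42). Timp3, an inhibitor of metalloproteinases, was at 134 and 139 CPM at 12 h, against 545 and 554 CPM at 6 h (log2 change -2.01). Pcolce, an enhancer of procollagen processing, had a log2 change of -1.90. Each of these genes had both 12 h libraries below both 6 h libraries.

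Targets of ATF4 were lower at 12 h than at 6 h and stayed above the control. Of 38 ATF4 targets 27 fell and 2 rose between 6 and 12 h, with a median log2 change of -0.41 (23 lower and 7 higher with library totals, where the median was -0.20), while the list's median log2 level over the control was 2.34 at 3 h, 2.74 at 6 h and 2.34 at 12 h. Atf4 itself was at 852 and 888 CPM at 12 h, against 1014 and 1031 CPM at 6 h (log2 change -0.23 ± 0.052, adjusted p = 0.000353 by edgeR), and averaged 309 CPM in the control. With library totals its log2 change was -0.02 and the call was lost. Asns, the asparagine synthetase, was at 643 and 664 CPM at 12 h, against 786 and 795 CPM at 6 h (log2 change -0.27 ± 0.051, adjusted p = 3.62e-05 by edgeR), a call that was lost with library totals at -0.06. Trib3, a pseudokinase induced by ATF4, was at 352 and 345 CPM at 12 h and at 349 and 345 CPM at 6 h (log2 change 0.00, adjusted p = 0.956 by edgeR). Ddit3, which encodes CHOP, a factor of prolonged stress, was at 104 and 99.9 CPM at 12 h and at 92.8 and 105 CPM at 6 h (log2 change 0.04, adjusted p = 0.645 by edgeR). The libraries overlapped in Trib3 and Ddit3, and with library totals both passed the threshold as higher, at 0.22 and 0.25.

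Other targets fell by far more. Slc7a11, the cystine importer, was at 90.9 and 96.5 CPM at 12 h, against 234 and 233 CPM at 6 h (log2 change -1.32 ± 0.075, adjusted p = 1.94e-14 by edgeR). Slc6a9, a glycine transporter, was at 149 and 141 CPM at 12 h, against 308 and 298 CPM at 6 h (log2 change -1.07). Eif4ebp1, the repressor of cap-dependent translation that mTORC1 switches off, was at 129 and 129 CPM at 12 h, against 295 and 292 CPM at 6 h (log2 change -1.19). All 3 remained above their control averages of 7.57, 18.1 and 86.5 CPM. Of 14 bZIP factors of the stress response 13 were tested, 9 fell and none rose (median log2 change -0.66). Atf3, an early stress factor, was at 43.0 and 46.3 CPM at 12 h, against 85.1 and 83.4 CPM at 6 h (log2 change -0.92 ± 0.061, adjusted p = 2.52e-13 by edgeR). Jdp2, Nfil3 and Atf6 had log2 changes of -0.92, -0.91 and -0.68.

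ATF4 and its partners of the C/EBP family bind a composite element with the core TGATGNAA. The promoters of Slc7a11 and Atf3 are shown because both genes fell and both hold this core in the window of 250 bases before to 50 after the start; they are RefSeq windows on GRCm38.p6 at chr3:50443564-50443863 and chr1:191183284-191183583, both on the minus strand, with the core in capitals on either strand.
Slc7a11: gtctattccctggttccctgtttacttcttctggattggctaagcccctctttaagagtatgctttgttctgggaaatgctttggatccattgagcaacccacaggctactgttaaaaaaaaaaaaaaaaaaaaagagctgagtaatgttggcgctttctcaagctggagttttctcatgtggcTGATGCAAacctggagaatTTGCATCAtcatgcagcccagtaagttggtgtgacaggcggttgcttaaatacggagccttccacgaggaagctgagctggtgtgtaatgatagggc
Atf3: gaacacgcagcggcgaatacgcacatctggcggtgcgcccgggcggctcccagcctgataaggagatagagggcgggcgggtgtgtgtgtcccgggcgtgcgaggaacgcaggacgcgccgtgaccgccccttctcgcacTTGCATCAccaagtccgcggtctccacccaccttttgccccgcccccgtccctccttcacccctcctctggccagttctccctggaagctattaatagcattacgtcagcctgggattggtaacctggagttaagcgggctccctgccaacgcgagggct
Slc7a11 held 2 matches, at 66 and 47 bases before the start, on opposite strands, and Atf3 held 1 at 110 bases before the start. Of the ATF4 targets with a window, 11 of 31 (35.48%) held the core, against 2.85% of tested genes. The list was made up partly of genes known to carry the element, so this share describes the list.

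Amino acid uptake and charging fell to different extents. Of 20 amino acid transporters 14 fell and 3 rose, with a median log2 change of -0.39. Slc6a6, the taurine transporter, was at 150 and 147 CPM at 12 h, against 396 and 401 CPM at 6 h (log2 change -1.42), and Slc38a1, a glutamine transporter, was at 301 and 307 CPM at 12 h, against 582 and 550 CPM at 6 h (log2 change -0.90). Slc38a9, the lysosomal arginine sensor that signals to mTORC1, was at 17.3 and 18.5 CPM at 12 h, against 7.56 and 8.29 CPM at 6 h (log2 change 1.17). Of 20 cytosolic aminoacyl-tRNA synthetases, which load amino acids on transfer RNA, 13 fell and 2 rose (median log2 change -0.34). Gars, for glycine, was at 349 and 374 CPM at 12 h, against 626 and 640 CPM at 6 h (log2 change -0.81), and Nars, for asparagine, was at 764 and 790 CPM at 12 h, against 1304 and 1311 CPM at 6 h (log2 change -0.75). The 2 that rose were Aars and Mars1, for alanine and methionine, at 0.14 and 0.29. Of 12 genes of serine and one-carbon synthesis 9 fell and 1 rose (median log2 change -0.49). Shmt1, which moves a carbon unit from serine to folate in the cytosol, was at 122 and 126 CPM at 12 h, against 237 and 242 CPM at 6 h (log2 change -0.95). Mtr, the methionine synthase, was at 69.3 and 69.8 CPM at 12 h, against 35.7 and 34.4 CPM at 6 h (log2 change 0.99). These 2 genes changed in opposite directions, with no overlap of libraries in either.

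Of 22 amino acid sensors and inhibitors of mTORC1 7 were higher and 8 lower (median log2 change 0.09), against 13 higher and 6 lower with library totals (median 0.30). Sesn3, a member of the sestrin family, was at 45.2 and 42.4 CPM at 12 h, against 18.6 and 18.0 CPM at 6 h (log2 change 1.26 ± 0.090, adjusted p = 8.35e-13 by edgeR). Castor2, of the family of arginine sensors, was at 24.2 and 23.5 CPM at 12 h, against 10.4 and 9.78 CPM at 6 h (log2 change 1.24). Ddit4, the stress-induced mTORC1 inhibitor REDD1, was at 47.6 and 40.4 CPM at 12 h, against 90.3 and 90.5 CPM at 6 h (log2 change -1.04). Both 12 h libraries of Ddit4 lay below both 6 h libraries, and those of Sesn3 and Castor2 above.

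The title of the study concerns autophagy, the breakdown of cell contents in lysosomes. Of 45 genes of its machinery and receptors 21 rose and 12 fell, with a median log2 change of 0.14, against 27 higher and 8 lower with library totals. Sqstm1, the cargo receptor p62, fell and was at 773 and 762 CPM at 12 h, against 1235 and 1252 CPM at 6 h (log2 change -0.70 ± 0.052, adjusted p = 2.71e-12 by edgeR). Map1lc3b, the LC3 protein that coats the membrane, was at 205 and 190 CPM at 12 h, against 230 and 222 CPM at 6 h (log2 change -0.20 ± 0.059, adjusted p = 0.0054 by edgeR), and its change was 0.01 with library totals. Ulk1, the kinase that starts the process, was at 102 and 90.4 CPM at 12 h, against 78.4 and 79.5 CPM at 6 h (log2 change 0.28 ± 0.071, adjusted p = 0.00123 by edgeR). The calls of these last 2 genes rested on single libraries: Ulk1 lost its call without the first 12 h library, at 0.18, and Map1lc3b lost its call without the first 6 h library, at -0.17, or without the second 12 h library, at -0.16. Wipi2, which recruits the LC3 conjugation enzymes, was at 119 and 115 CPM at 12 h, against 220 and 218 CPM at 6 h (log2 change -0.90). Atg9a, the lipid scramblase of the forming membrane, was at 114 and 105 CPM at 12 h, against 63 and 59.8 CPM at 6 h (log2 change 0.84). Ccpg1, a receptor for autophagy of the endoplasmic reticulum (ER), was at 32.2 and 31.5 CPM at 12 h, against 13.2 and 11.8 CPM at 6 h (log2 change 1.35).

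Lysosomal genes rose more often than they fell, with 24 of 45 higher and 10 lower and a median log2 change of 0.18. Atp6v0a1, a membrane subunit of the proton pump that acidifies lysosomes, was at 125 and 122 CPM at 12 h, against 46.4 and 49.2 CPM at 6 h (log2 change 1.36 ± 0.064, adjusted p = 7.1e-17 by edgeR). Mcoln1, the calcium channel of the lysosome, was at 110 and 111 CPM at 12 h, against 51.7 and 54.8 CPM at 6 h (log2 change 1.05 ± 0.061, adjusted p = 1.07e-14 by edgeR). Atp6v0d1, another pump subunit, was at 231 and 237 CPM at 12 h, against 142 and 144 CPM at 6 h (log2 change 0.72). In all 3 genes the 12 h libraries lay above the 6 h libraries.

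TFEB and TFE3 bind the E-box CACGTG, which reads the same on both strands. The promoters of Mcoln1 and Atp6v0d1 are shown because these lysosomal genes rose and hold it near the start; the RefSeq windows on GRCm38.p6 are chr8:3500269-3500568, plus strand, and chr8:105566015-105566314, minus strand, with the E-box in capitals.
Mcoln1: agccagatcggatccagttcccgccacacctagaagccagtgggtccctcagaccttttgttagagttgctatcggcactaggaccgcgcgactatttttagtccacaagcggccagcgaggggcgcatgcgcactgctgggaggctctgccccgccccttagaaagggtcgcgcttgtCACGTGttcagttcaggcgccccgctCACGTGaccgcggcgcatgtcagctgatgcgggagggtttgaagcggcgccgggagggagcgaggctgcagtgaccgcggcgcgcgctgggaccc
Atp6v0d1: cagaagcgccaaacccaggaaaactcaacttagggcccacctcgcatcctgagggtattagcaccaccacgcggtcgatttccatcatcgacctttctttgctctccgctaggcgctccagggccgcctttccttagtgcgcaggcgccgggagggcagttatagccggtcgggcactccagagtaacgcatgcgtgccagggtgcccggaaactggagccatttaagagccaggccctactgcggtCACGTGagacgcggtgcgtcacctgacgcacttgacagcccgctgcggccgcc
Mcoln1 held 2 matches, at 71 and 45 bases before the start, and Atp6v0d1 held 1 at 3 bases before the start. Of lysosomal genes with a window, 15 of 35 (42.86%) held the E-box, against 11.16% of tested genes. This list was likewise made up by known roles, so its share describes the list. Many other factors bind the same letters. The AP-1 core TGANTCA, searched likewise on both strands, was in 14.25% of the 856 genes with a window that fell at least 2-fold, in 5.73% of the 907 that rose at least 2-fold and in 6.64% of tested genes. For the E-box these shares were 10.4%, 9.37% and 11.16%, for the CArG box 2.69%, 0.33% and 1.67%, and for TGATGNAA 4.32%, 2.54% and 2.85%, in the same order.

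Protein synthesis genes fell. Of 30 ribosome biogenesis genes 28 fell and none rose, with a median log2 change of -0.79. Mybbp1a, a nucleolar regulator of ribosomal RNA transcription, was at 289 and 269 CPM at 12 h, against 604 and 599 CPM at 6 h (log2 change -1.11 ± 0.053, adjusted p = 1.19e-16 by edgeR). Tsr1 and Wdr43, assembly factors of the small ribosomal subunit, had log2 changes of -1.10 and -1.05, and Dkc1, the pseudouridine synthase of ribosomal RNA, was at 86.6 and 89.3 CPM at 12 h, against 178 and 180 CPM at 6 h (log2 change -1.03). Of 30 translation initiation and elongation factors 27 fell and 3 rose (median log2 change -0.43), and with library totals 17 fell and 3 rose. Eif4a1, the helicase that unwinds messenger RNA leaders, was at 583 and 582 CPM at 12 h, against 1136 and 1161 CPM at 6 h (log2 change -0.98). Eef1a1, which delivers charged tRNA to the ribosome, was at 5025 and 4882 CPM at 12 h, against 9546 and 9238 CPM at 6 h (log2 change -0.92).

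Ribosomal protein genes themselves changed less. Of 80 cytosolic ribosomal protein genes 44 fell and none rose, with a median log2 change of -0.18. With library totals 10 fell and 19 rose and the median was 0.03, still below the 0.217 of all genes in that setting. Rpl6 had the largest fall among them, at 652 and 661 CPM at 12 h, against 1138 and 1130 CPM at 6 h (log2 change -0.79). Rps3a1, also past the threshold, was at 535 and 560 CPM at 12 h, against 746 and 772 CPM at 6 h (log2 change -0.47). Ribosomal proteins of the mitochondrion went the other way, with 46 of 77 higher and 10 lower and a median of 0.24, and 62 higher and none lower with library totals. Mrpl2 was at 67.2 and 63.5 CPM at 12 h, against 37.6 and 38.0 CPM at 6 h (log2 change 0.79), and Mrps26 was at 53 and 55.3 CPM at 12 h, against 28.9 and 33.1 CPM at 6 h (log2 change 0.80). Actg1, Eef1a1 and most ribosomal protein genes have processed copies elsewhere in the genome, and how reads with several matches were counted is not given in the sources used here.

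Chaperones of the cytosol fell and those of the ER were divided. Of 21 cytosolic chaperones and heat shock factors 15 fell and 2 rose (median log2 change -0.45). Hspa8, the constitutive HSP70, was at 476 and 481 CPM at 12 h, against 1162 and 1153 CPM at 6 h (log2 change -1.28 ± 0.051, adjusted p = 1.98e-18 by edgeR). Hsp90ab1, the constitutive HSP90, was at 1069 and 1046 CPM at 12 h, against 2710 and 2682 CPM at 6 h (log2 change -1.35 ± 0.051, adjusted p = 5.51e-19 by edgeR). All 8 subunits of the chaperonin, the ring that folds actin and tubulin, fell (median log2 change -0.42), and 6 of the 8 with library totals. Cct2 was at 227 and 242 CPM at 12 h, against 451 and 457 CPM at 6 h (log2 change -0.95). Of 24 ER chaperones and genes of ER-associated degradation 6 rose and 9 fell. Their median was -0.04 and turned to 0.17 with library totals. Pdia6, a disulfide isomerase, was at 69.2 and 75.6 CPM at 12 h, against 155 and 142 CPM at 6 h (log2 change -1.04). Of 31 proteasome subunits 12 fell and 3 rose, with a median of -0.12 that turned to 0.09 with library totals.

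Metabolic pathways parted. Of 19 glycolytic genes 14 fell and 3 rose, with a median log2 change of -0.42. Hk2, a hexokinase, was at 39.7 and 34.9 CPM at 12 h, against 81.5 and 79.9 CPM at 6 h (log2 change -1.11), and Eno1, the enolase, was at 632 and 605 CPM at 12 h, against 1013 and 995 CPM at 6 h (log2 change -0.70). Of 25 genes of cholesterol synthesis and uptake 15 rose and 4 fell, with a median of 0.23. Lss, which closes the sterol ring, was at 54.0 and 50.3 CPM at 12 h, against 28.8 and 26.9 CPM at 6 h (log2 change 0.91 ± 0.067, adjusted p = 1.99e-12 by edgeR). Hmgcs1, an early enzyme of the pathway, was at 45.4 and 47.0 CPM at 12 h, against 31.3 and 32.3 CPM at 6 h (log2 change 0.54 ± 0.064, adjusted p = 2.71e-08 by edgeR). Msmo1, a sterol demethylase of the pathway, went against the list, at 79.2 and 86.4 CPM at 12 h and 157 and 157 CPM at 6 h (log2 change -0.92). The rise was partial for the pathway: its median log2 level over the control was -0.80 at 3 h, -1.30 at 6 h and -1.17 at 12 h.

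Among mitochondrial genes, nuclear respiratory chain subunits had 10 of 33 higher and 4 lower (median log2 change 0.06), with Ndufv2 of complex I at 49.6 and 52.1 CPM at 12 h, against 33.0 and 32.9 CPM at 6 h (log2 change 0.63). Of the 13 protein-coding genes of the mitochondrial genome 11 fell and none rose (median -0.28, and -0.44 without the second 12 h library), and with library totals 1 fell and none rose. The sum of mitochondrial reads is given above and differed little between the times. Fatty acid oxidation had 7 of 16 higher and 2 lower (median 0.08), and fatty acid synthesis 4 of 13 higher and 4 lower (median -0.04). The first median turned to -0.02 and -0.03 without genes that overlap others, and the second to between 0.02 and 0.17 with library totals or without the second 12 h library.

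Cell cycle genes were divided. DNA replication genes rose more often than they fell, D cyclins and CDK inhibitors fell more often, and the mitotic median lay near that of all genes. Of 29 DNA replication genes 14 rose and 4 fell (median log2 change 0.13), and with library totals 24 rose and 1 fell (median 0.34). Cdc6, which loads the replicative helicase, was at 237 and 246 CPM at 12 h, against 196 and 192 CPM at 6 h (log2 change 0.32 ± 0.057, adjusted p = 2.3e-05 by edgeR), and E2f1, a factor that drives S phase genes, was at 129 and 123 CPM at 12 h, against 87.0 and 83.4 CPM at 6 h (log2 change 0.56). Of 25 mitotic genes 9 rose and 5 fell, with a median of 0.03 that was -0.06 to -0.01 under DESeq2, with its size factors in edgeR, without genes whose spans overlap and without the second 12 h library. With library totals 18 mitotic genes rose and none fell (median 0.24). Ccnb2, a cyclin of mitosis, was at 67.1 and 67.6 CPM at 12 h, against 34.1 and 34.3 CPM at 6 h (log2 change 0.98 ± 0.068, adjusted p = 5.59e-13 by edgeR). Ccnd1, the D cyclin that links growth factors to the cycle, was at 10.3 and 10.8 CPM at 12 h, against 44.7 and 40.4 CPM at 6 h (log2 change -2.01 ± 0.069, adjusted p = 6.5e-20 by edgeR), and averaged 250 CPM in the control. Of 10 D cyclins and CDK inhibitors 6 fell and 3 rose (median -0.345). Of 21 p53 targets 11 fell and 3 rose (median -0.21), while with library totals 8 fell and 8 rose (median 0.004). Cdkn1a, the CDK inhibitor p21, was at 120 and 124 CPM at 12 h, against 212 and 217 CPM at 6 h (log2 change -0.82).

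Several stress and rhythm programmes were also read. Of 23 NRF2 targets, genes of the oxidative stress response, 22 were tested, 17 fell and none rose (median log2 change -0.45). Txnrd1, a thioredoxin reductase, was at 204 and 207 CPM at 12 h, against 405 and 411 CPM at 6 h (log2 change -0.99). Of 19 circadian clock genes 12 fell and none rose (median -0.77), and Nr1d2, a repressor of the clock loop, was at 119 and 126 CPM at 12 h, against 241 and 246 CPM at 6 h (log2 change -0.99). The 2 times fall at different hours after the change of medium, and clock phase was not measured. Of 15 hypoxia-inducible genes 14 were tested, 4 rose and 7 fell, with a median of -0.13 that turned to 0.08 with library totals. Vegfa, the vascular growth factor, which ATF4 also activates, was at 210 and 220 CPM at 12 h, against 365 and 385 CPM at 6 h (log2 change -0.80). Of 20 FOXO targets 18 were tested, 5 rose and 8 fell, with a median of -0.10 that turned to 0.11 with library totals. Of 8 alpha-arrestins and Mondo factors, genes and sensors tied to sugar and lactate, 7 were tested, 5 rose and none fell (median 0.57), and Txnip was at 47.1 and 50.3 CPM at 12 h, against 30.7 and 34.9 CPM at 6 h (log2 change 0.57).

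Of 298 zinc finger genes with numbers of 3 digits 114 rose and 37 fell (median log2 change 0.21). Zfp746 was at 72.3 and 72.6 CPM at 12 h, against 39.4 and 36.3 CPM at 6 h (log2 change 0.94). Of 14 snoRNA host genes 3 rose and 6 fell, with a median of -0.02 that turned to 0.19 with library totals and to 0.42 without overlapping genes. Of 56 replication-dependent histone genes, whose transcripts lack a poly(A) tail, 2 rose and 5 fell at low counts.

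The same interval of glucose starvation shares no library with these 4, so the difference between the changes was tested directly. In 6987 genes (39.5%) the change between 6 and 12 h differed between the starvations, with 3159 (17.9%) higher under amino acid starvation and 3828 (21.6%) lower. Under glucose starvation 8411 genes (47.5%) changed between 6 and 12 h, 25.6% of those tested upward and 21.9% downward. Of 5794 genes called in both, 4650 had the same sign and 1144 the opposite one, and the log2 changes correlated at r = 0.369 across genes, which are not independent replicates.

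Vimentin and transgelin showed the largest extra falls among well expressed genes. Vim averaged 2214 CPM at 12 h and 2454 CPM at 6 h of glucose starvation, a log2 change of -0.15, so the changes differed by -3.02 ± 0.081 (SE, adjusted p = 3.72e-21 by edgeR). Tagln averaged 171 CPM at 12 h and 189 CPM at 6 h of glucose starvation, and its changes differed by -2.80 ± 0.089 (adjusted p = 1.63e-19 by edgeR). The cytoplasmic actins gave differences of opposite sign, -1.69 for Actg1, which averaged 2308 CPM at 12 h and 4149 CPM at 6 h of glucose starvation, and 0.60 for Actb, which averaged 1537 CPM at 12 h and 4340 CPM at 6 h. Thbs1 fell in both intervals, by 2.59 without amino acids and by 2.73 without glucose on the log2 scale, and the difference was 0.14 ± 0.1 (adjusted p = 0.295 by edgeR). Among actin and contractile genes 20 of 30 fell by more without amino acids and 3 by less, and among collagens 16 of 21 by more and 1 by less. Under glucose starvation 24 of these actin genes and 18 of these collagens also fell. There 18 of 25 immediate early genes fell and 5 rose (median log2 change -0.96). Of 16 MAP kinase phosphatase and Sprouty genes 13 fell and 0 rose (-0.86). Of 24 cytokine list genes 15 fell and 2 rose (-0.99), and of 17 YAP and TAZ targets 14 fell and 1 rose (-0.81).

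The change of the amino acid response between 6 and 12 h differed between the starvations. Of 38 ATF4 targets 34 had a lower change without amino acids and none a higher one, and 28 rose between 6 and 12 h of glucose starvation. Their median log2 level over the control was 1.425 at 3 h, 1.805 at 6 h and 2.258 at 12 h of glucose starvation. Without amino acids it was 2.337, 2.742 and 2.342 at the same times, and these levels were not tested. Atf3 averaged 132 CPM at 12 h and 42.1 CPM at 6 h of glucose starvation, and the changes differed by -2.56 (adjusted p = 5.37e-19 by edgeR). Sqstm1 averaged 848 CPM at 12 h and 452 CPM at 6 h of glucose starvation, a difference of -1.60 (adjusted p = 5.79e-16 by edgeR), and Cdkn1a averaged 101 and 41.9 CPM at these times, a difference of -2.09. For Atf4 the changes differed by -0.11 (adjusted p = 0.254 by edgeR). Hspa8 averaged 6191 CPM at 12 h and 5021 CPM at 6 h of glucose starvation, a difference of -1.58. Among ER chaperones 19 of 24 had a lower change without amino acids and none a higher one.

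Cholesterol and mitotic genes gave differences of the opposite sign. Of 25 cholesterol genes 17 had a higher change without amino acids and 2 a lower one, and Hmgcs1 averaged 99.2 CPM at 12 h and 245 CPM at 6 h of glucose starvation, a difference of 1.84 (adjusted p = 9.32e-16 by edgeR). Of 25 mitotic genes 19 had a higher change without amino acids and none a lower one, and Ccnb2 averaged 26.8 CPM at 12 h and 40.5 CPM at 6 h of glucose starvation, a difference of 1.57 (adjusted p = 3.6e-13 by edgeR). Lysosomal genes rose in both intervals, with 33 of 45 higher under glucose starvation. By the test of the difference 9 of the 45 had a higher change without amino acids and 16 a lower one, and Mcoln1 gave a difference of 0.07 (adjusted p = 0.563 by edgeR).

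**Figure D4:**
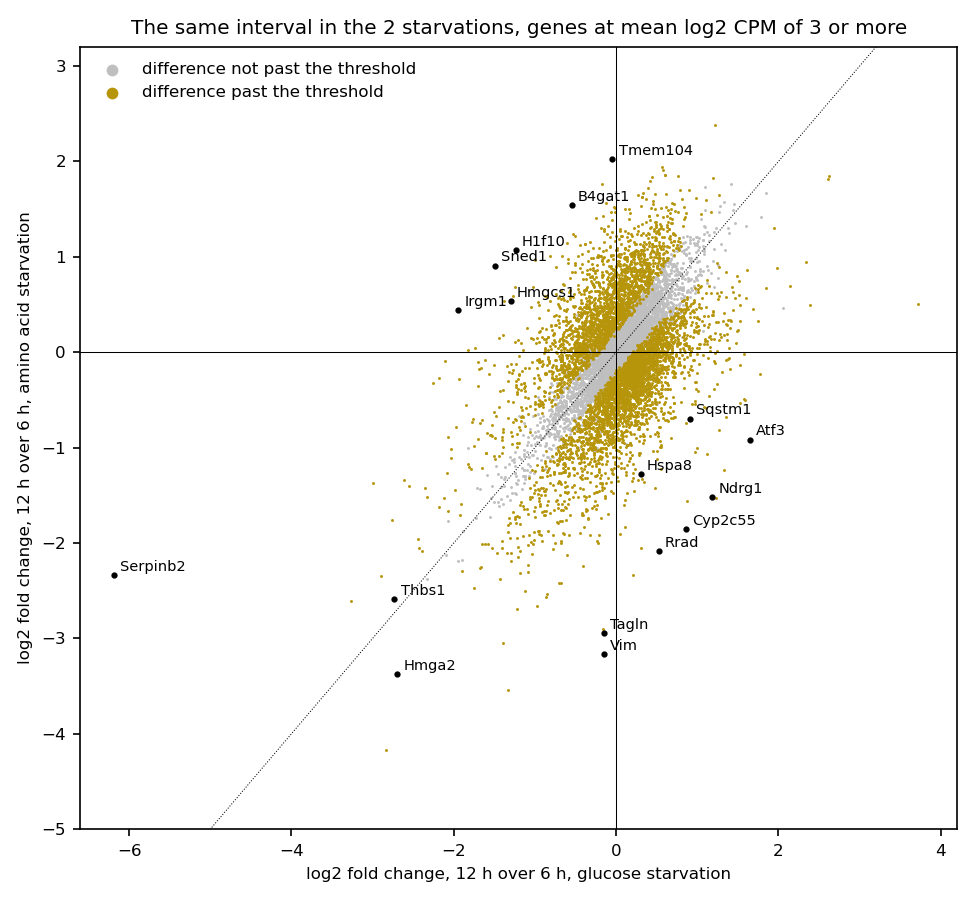
Log2 fold change over the same interval (12 h over 6 h) under amino acid starvation (vertical axis) and glucose starvation (horizontal axis) for genes at a mean log2 CPM of 3 or more; ochre genes are those whose 2 changes differ past the threshold, and the dotted line marks equal changes. Vim and Tagln lie far below the line at -3.17 and -2.95 under amino acid starvation and -0.15 under glucose starvation, while Thbs1 lies on it.

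The levels over the whole course place the interval. Since these levels share the control libraries, they are given as description and were not tested here. Immediate early genes had a median log2 level over the control of 2.76 at 3 h, 1.43 at 6 h and 0.25 at 12 h of amino acid starvation. Collagens stood at -0.16 at 3 h, -0.58 at 6 h and -1.85 at 12 h, and actin and contractile genes at 0.22, -0.37 and -1.48 at the same times. Ribosome biogenesis genes stood at 0.46 at 3 h, 0.53 at 6 h and -0.28 at 12 h. Egr1 averaged 82.3 CPM in the control and 1352 CPM at 3 h, and Vim 2246 CPM in the control and 2449 CPM at 3 h. The fall of Egr1 thus ran back below its control level, while that of Vim began after 3 h. Of the 1391 genes that fell at least 2-fold, 83.1% lay below the control at 12 h and 42.6% at 6 h, against 47.5% and 50.3% of all genes. Of the 1288 that rose at least 2-fold, 21.6% lay below the control at 12 h and 79.4% at 6 h. The choice of genes by their fall or rise fixes part of these shares.

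**Figure D5:**
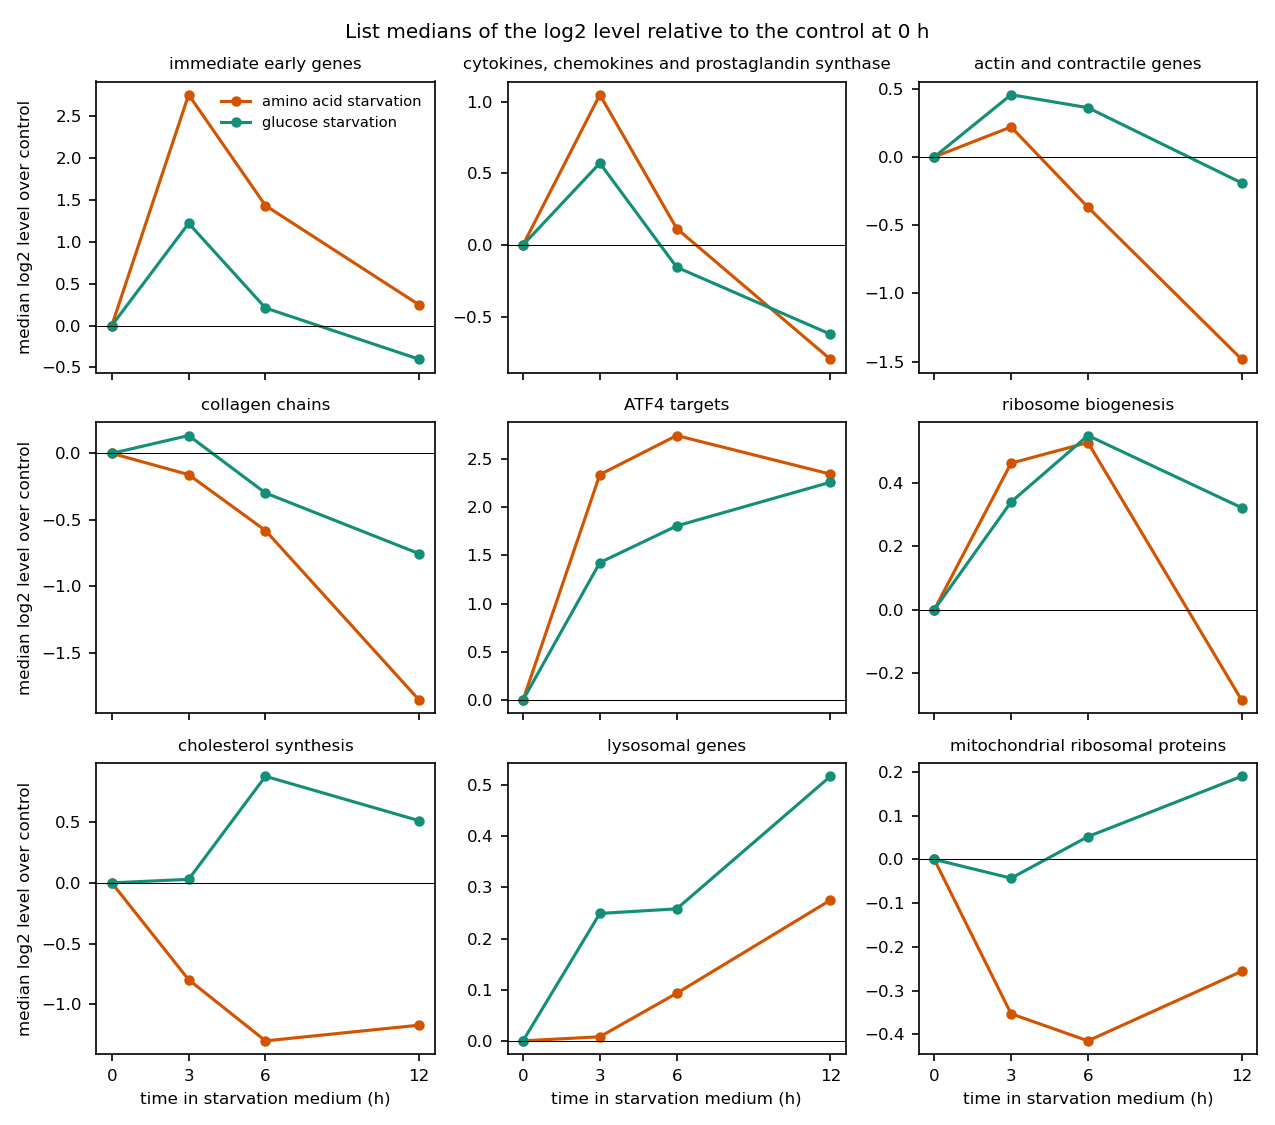
Median log2 level relative to the control at 0 h (vertical axes, each with its own scale) of the members of 9 gene lists, over time in starvation medium in h (horizontal axis), under amino acid starvation (orange) and glucose starvation (green). Between 6 and 12 h of amino acid starvation the medians of collagens and actin genes fell to -1.85 and -1.48, while that of lysosomal genes reached 0.28.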

How the data were processed

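RNA sequencing of MEFs gave 14 libraries in 7 groups of 2. The authors deposited 1 table of read counts per transcript row; per the submitters' processing notes reads were aligned with STAR and counted with bedtools on GRCm39, with no version given. The table has 67457 rows, of which 58 name no gene and hold 0% of reads. For each of 40800 symbols the row with the highest sum over the 14 libraries was used (32.9% of symbols have several rows). From these deposited counts, edgeR 4.0.16 (R 4.3.3, limma 3.58.1) fitted 7 group means to all 14 libraries with TMM factors, filterByExpr and robust quasi-likelihood dispersions (7 residual degrees of freedom; biological coefficient of variation 5.78%), and tested 12 h against 6 h of amino acid starvation and its difference from the same interval of glucose starvation. P-values were adjusted by Benjamini-Hochberg over the 17696 genes tested, with a threshold of 0.05. CPM are scaled with TMM factors (1.161 and 1.149 at 12 h, 0.9999 and 0.9964 at 6 h of amino acid starvation), and the SE of a log2 change is its size divided by the root of F.

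Named genes are the 12 highest and 12 lowest changes of called genes whose log2 CPM averaged 3 or more, with no overlap of libraries and no provisional symbol, up to 4 called members of each list by p, the 6 highest and 6 lowest differences between starvations, and a panel of 16 genes. A few genes that meet this rule are not reported here. One symbol that is an Ensembl identifier was passed over after its values were seen. The members and the lists were chosen with earlier results of these data known. Symbols were matched to the GENCODE M21 annotation for 98.1% of tested genes; no gene coordinates are given, because its build is GRCm38, and promoter windows are RefSeq's on GRCm38.p6. Alternatives were DESeq2 1.42.0, other scalings, filters, sample sets and transcript choices, offsets for GC content and length, a replicate block, and fits without overlapping genes or without single libraries. Counts were simulated for the 12 h against 6 h comparison over 16965 genes. The fit recovered 77.6% of 67 genes changed by 0.5 on the log2 scale, 98.5% of 67 changed by 1 and 100% of 66 changed by 2. It gave 9 false calls among 193. Only these genes were changed, in random directions and above a floor of level, with the spread taken from the fit. In the data 54.9% of genes were called, so the simulation cannot speak to scaling or to false calls there.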

Additional observations from a re-analysis of the deposited data

Results flagged for a closer look

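The change between 6 and 12 h differed between amino acid and glucose starvation by the test of the difference itself in 6987 genes. Of well expressed genes, those with the largest differences are given here with the log2 change under amino acid starvation minus that under glucose starvation. The lowest were Vim at -3.02, Tagln at -2.80, Cyp2c55 at -2.71, Ndrg1 at -2.70, Rrad at -2.61 and Atf3 at -2.56. Ndrg1, a stress and hypoxia-induced gene, was at 139 and 138 CPM at 12 h, against 402 and 389 CPM at 6 h of amino acid starvation, while it averaged 524 CPM at 12 h and 230 CPM at 6 h of glucose starvation. Rrad, a small GTPase, was at 5.94 and 4.55 CPM at 12 h, against 22.2 and 22.3 CPM at 6 h of amino acid starvation, and averaged 6.61 CPM at 12 h and 4.58 CPM at 6 h of glucose starvation. Cyp2c55, a cytochrome P450, was under 1 CPM at both times of glucose starvation, so its difference rests on few reads there.

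The highest differences were Serpinb2 at 3.85, Sned1 at 2.41, Irgm1 at 2.38, H1f10 at 2.31, B4gat1 at 2.10 and Tmem104 at 2.07. Serpinb2, an inhibitor of plasminogen activators, fell in both starvations: it was at 3.97 and 4.1 CPM at 12 h, against 20.2 and 20.6 CPM at 6 h of amino acid starvation, and averaged 0.0557 CPM at 12 h and 4.99 CPM at 6 h of glucose starvation. With so few reads there at 12 h, its difference was 8.39 without the first 12 h library of glucose starvation. Irgm1, an interferon-induced GTPase of autophagy and host defence, was at 10.7 and 12.1 CPM at 12 h, against 7.46 and 9.25 CPM at 6 h of amino acid starvation, and averaged 6.23 CPM at 12 h and 23.9 CPM at 6 h of glucose starvation; its rise under amino acid starvation, 0.44 on the log2 scale, was 0.30 and not called without the first 6 h library. B4gat1, a glycosyltransferase, was at 26.9 and 29.8 CPM at 12 h, against 9.24 and 10.1 CPM at 6 h of amino acid starvation, and averaged 16.2 CPM at 12 h and 23.6 CPM at 6 h of glucose starvation. Sned1 averaged 21.1 CPM at 12 h and 11.2 CPM at 6 h of amino acid starvation, against 7.91 CPM at 12 h and 22.7 CPM at 6 h of glucose starvation. The exons of Cyp2c55, Ndrg1, Rrad, Tagln, Serpinb2, Sned1, H1f10 and B4gat1 overlap those of another annotated gene.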

How the results depend on the processing

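Over 11 alternatives that kept all 4 libraries and the overlapping genes, the number of calls lay between 9234 and 10383, against 9708. With library totals in place of TMM factors 7192 genes were higher and 3191 lower, with 2025 and 996 at least 2-fold, and for the difference between starvations 4864 were higher and 2432 lower, with 1322 higher and 526 lower at least 2-fold. Map1lc3b turned to 0.01 there. DESeq2 gave 9410 calls, of which 4251 were higher and 5159 lower. Leaving out genes whose exons overlap another's, an overlap defined after seeing the data, left 5588 calls, 2871 higher and 2717 lower, with 769 and 818 at least 2-fold; the difference gave 4051 calls, 1822 higher and 2229 lower, with 515 and 476 at least 2-fold. Leaving out genes whose whole spans overlap, added after seeing the data, left 3930 calls, 1815 higher and 2115 lower, with 466 and 616 at least 2-fold; the difference gave 2869 calls, 1244 higher and 1625 lower, with 338 and 322 at least 2-fold. These falls in number follow from fewer genes tested, 9898 and 6642, and the share called was 56.5% and 59.2%. Without 1 library the calls lay between 8204 and 8444, and those of the difference between 6053 and 6284; the lone library of a group was assumed to vary like the others. The labels tie no library number to a shared culture or day, and 2 libraries a group cannot establish a pairing. Deviations of same-numbered libraries correlated at between -0.262 and 0.387 over 21 pairs of groups, and at 0.228, 0.264 and 0.27 in the 3 pairs within amino acid starvation; the replicate block gave 9897 calls. Of 3418 values of named genes under alternatives 3394 kept their direction and side of the threshold, and 21 lost and 2 gained the call in the same direction; Atf4, Asns, Scd2, Foxm1, mt-Co1, mt-Co2, mt-Cytb and H2bc12 lost it with library totals, where Trib3 and Ddit3 gained it. The exons of Scd2, Foxm1 and mt-Co1 overlap those of another gene. Of 44 list medians 10 changed sign under some alternative, 8 of them with library totals, where the median of all genes was itself 0.217.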

Other observations

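Genes of the primary cilium, the antenna-like organelle of resting cells, were among the rises and stood in no list. Families were looked up by the start of their symbols, 14 in all, after the values were seen, so their counts describe these libraries and were not tested as groups. Of 14 genes named Ift, most of which carry cargo along the cilium, 12 were higher at 12 h and none lower, with a median log2 change of 0.93, against 27.8% and 27.1% of all genes and a median of 0.006. Ift172 was at 41.8 and 32.0 CPM at 12 h, against 11.8 and 11.8 CPM at 6 h (log2 change 1.64), and Ift122 was at 22.0 and 19.1 CPM at 12 h, against 6.66 and 7.35 CPM at 6 h (log2 change 1.55). Of 8 Bbs genes 7 were higher and 1 lower (median 0.93), and all 3 Tctn genes of the transition zone were higher, with Tctn1 at 34.6 and 31.8 CPM at 12 h, against 10.8 and 10.2 CPM at 6 h (log2 change 1.66). Of 34 Cep genes, many of them centrosomal, 22 were higher and 6 lower (median 0.53), and Cep290, which links the cilium's base to its membrane, was at 48.6 and 49.0 CPM at 12 h, against 16.4 and 18.0 CPM at 6 h (log2 change 1.5). The change of Cep290 differed from that under glucose starvation by 1.35 (adjusted p = 1.88e-08 by edgeR). Likewise 7 of the 8 Bbs genes and 8 of the 14 Ift genes had a higher change without amino acids, and 1 Ift gene a lower one. Under glucose starvation 9 Ift genes rose and 0 fell, with 4 and 1 for Bbs, 3 and 0 for Tctn and 13 and 6 for Cep. The Ift, Bbs, Tctn and Cep median log2 levels over the control were -0.55, -0.03, -0.46 and 0.19 at 6 h of amino acid starvation. At 12 h they were 0.38, 0.69, 0.82 and 0.41. Primary cilia were not measured here.

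Of 11 Coq genes, which make or use coenzyme Q of the respiratory chain, 10 were higher and 1 lower (median 0.63). Coq9 was at 70.9 and 68.1 CPM at 12 h, against 20.4 and 22.4 CPM at 6 h (log2 change 1.70). Of 23 H2 genes of the major histocompatibility complex 10 were higher and 1 lower (median 0.79). H2-K1, a class I heavy chain, was at 242 and 233 CPM at 12 h, against 153 and 146 CPM at 6 h (log2 change 0.67). The members of this complex are close in sequence, so their reads may be split among them. Of 12 Parp genes 11 were higher and 1 lower (median 0.56), and Parp12, an interferon-induced member, was at 19.5 and 19.3 CPM at 12 h, against 6.05 and 5.39 CPM at 6 h (log2 change 1.77). Of 8 Cog genes of the Golgi tethering complex 6 were higher and none lower (median 0.39), and of 34 Vps genes of vesicle sorting 17 were higher and 10 lower (median 0.27). The other families looked up had medians between 0.02 and 0.29: 80 higher and 34 lower of 185 Tmem, 15 and 10 of 35 Kif, 14 and 11 of 40 Slc25a, 10 and 8 of 23 Polr2 and Polr3, and 18 and 18 of 50 Rab genes. The exons of Tctn1, Cep290 and Coq9 overlap those of another annotated gene.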
